A study of Mus musculus with 6 samples.

Results

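The genes described are Fabp3, Fabp5 and Fabp7, fatty acid-binding protein genes taken by symbol from the deposited counts of all 6 libraries, 3 of 31053 gene rows. They were selected on results of these same counts, with their levels by cell class and genotype in view, so those levels and their differences between genotypes are a description, and no p-value below is independent support for them. The cells were mouse embryonic stem cells with the HB9::GFP reporter, whose fluorescence follows the motor neuron gene Hb9 (Mnx1), grown as embryoid bodies to day 6 of motor neuron differentiation. The genotypes sequenced were 3, each as 2 libraries of 1 clone each. WT libraries are wild type. DeltaSP libraries carry the genotype label lncMN2_SP-/- and KO libraries the label lncMN2-/-, and both edits were made with CRISPR/Cas9 as loss-of-function changes of the MN2 locus. All libraries share the HB9::GFP background and differentiation day 6, and the replicate numbers are not stated to mark libraries handled on a shared date. With 1 clone per library, the edit and the history of a clone cannot be told apart within a library, and p-values measure the spread between libraries.

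Fatty acid-binding proteins are small cytosolic proteins that carry long-chain fatty acids and other lipids between membranes, enzymes and the nucleus. They belong to the intracellular lipid-binding proteins, with the cellular retinol- and retinoic acid-binding proteins, which matter here because motor neuron protocols commonly use retinoic acid. Fabp7, the brain type, is a classical marker of radial glia and neural progenitors and lies downstream of Pax6 and Notch in the developing brain. Fabp5, the epidermal type, is found in neurons and glia and can deliver ligands to the nuclear receptor Ppard, and Fabp3, the heart type, supplies fatty acids to oxidation in muscle and is also found in neurons.

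Fabp3 (ENSMUSG00000028773) lies on chromosome 4 from 130308595 to 130315463, plus strand, in mm10, with an 823-base transcript of 4 exons and 133 codons. Fabp5 (ENSMUSG00000027533) lies on chromosome 3 from 10012548 to 10016607, plus strand, with a 987-base transcript and 135 codons. Fabp7 (ENSMUSG00000019874) lies on chromosome 10 from 57784881 to 57788450, plus strand, with an 804-base transcript and 132 codons. The 3 genes therefore sit on different chromosomes and share a coding length within a few codons. The processed pseudogenes Fabp3-ps1 and Fabp5l2 are annotated elsewhere in the mouse genome, and reads that could come from such a near-identical copy make the Fabp3 and Fabp5 counts uncertain to that extent.

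Promoter sequence is shown because Fabp3 and Fabp7 are high in opposite cell classes, as described below. RefSeq's promoter table (GRCm38.p6, the assembly of mm10) held 2 of the 3 members, and only the bases before the annotated gene are printed, with capitals on the motif matches searched for.
Fabp3, chr4:130308488-130308594, plus strand: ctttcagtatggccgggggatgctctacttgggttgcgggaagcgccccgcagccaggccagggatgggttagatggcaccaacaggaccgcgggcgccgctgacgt
Fabp7, chr10:57784673-57784880, plus strand: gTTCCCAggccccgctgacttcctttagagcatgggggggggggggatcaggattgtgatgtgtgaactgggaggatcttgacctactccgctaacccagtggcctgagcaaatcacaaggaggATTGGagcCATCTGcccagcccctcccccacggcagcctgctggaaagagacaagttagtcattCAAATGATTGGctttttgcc
The Fabp7 window of 300 bases (250 before to 50 after the RefSeq start) held TGGGAA, the core read by the Notch effector Rbpj, once on the minus strand at position -249. It also held the E-box CANNTG at -118 (as CATCTG) and at -62 (as CAAATG), and CCAAT on the minus strand at -126 and -56. The Fabp3 window held a single match, the E-box CATGTG at -45 from the RefSeq start. That match, at 130308693 to 130308698, lies inside the annotated gene and so outside the bases printed. Neither window held GGGCGG or TATAAA. These letters are common, since on either strand TGGGAA was in 25.6% of 32851 mouse promoter windows of the same length, CANNTG in 72.3%, CCAAT in 37.4%, GGGCGG in 35.7% and TATAAA in 13.6%. A match describes the letters only.

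Over the 6 libraries the deposited counts held 24215 barcodes and 24191242 to 49061693 UMIs per library (molecule tags, so that 1 UMI stands for 1 captured RNA). Barcodes passed as cells when they held 1000 genes or more and no more than 10% of mitochondrial UMIs, 16225 in all and 1612 to 4499 per library, and 69 barcodes occurred in more than 1 library. WT 1 was the shallowest, since its cells had a median of 4157 UMIs where other libraries had 11898.5 to 15112, and it filled clusters of its own. No doublets were removed. The targeted transcript 5330434G04Rik was at 32.5 and 33.5 CPM (UMIs scaled to a common total) in WT, 23.4 and 22.2 in DeltaSP, and 0.133 and 0.191 in KO. Clusters were grouped into progenitor-like, committing precursor-like and neuron-like classes by marker genes, with the family genes left out of the clustering. Progenitor-like sums held 1094 to 1506 CPM of 10 neural progenitor markers and neuron-like sums 18783 to 23919 CPM of 15 pan-neuronal markers. The neuron-like sums also held 1008 to 2007 CPM of 10 motor neuron markers, so the labelled motor neuron differentiation was present.

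Of the 9 gene rows whose symbol starts with Fabp, 3 carried nearly all UMIs. Over all barcodes Fabp5 had 178255 UMIs, Fabp7 91421 and Fabp3 2701, whereas Fabp4, the adipocyte type, had 25, Fabp12 had 6, and Fabp1, Fabp2 and Fabp6, the liver and intestinal types, had 1 each. Fabp9 and the peripheral myelin gene Pmp2 had 0. Among the retinoid-binding relatives Crabp2 had 102320 UMIs, Crabp1 71093, Rbp2 1630 and Rbp7 23. In the progenitor-like sums, 10 adipocyte or muscle markers reached 32.8 to 95.7 CPM, of which Lpl, which releases fatty acids from lipoproteins, gave 30.9 to 94.5, while the defining adipocyte genes Adipoq, Plin1 and Cidec were at 0.174 CPM or less. In the neuron-like sums the same 10 markers reached 3.59 to 8.60 CPM, and the part of such cells in the Fabp levels was not tested.

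**Figure D1:**
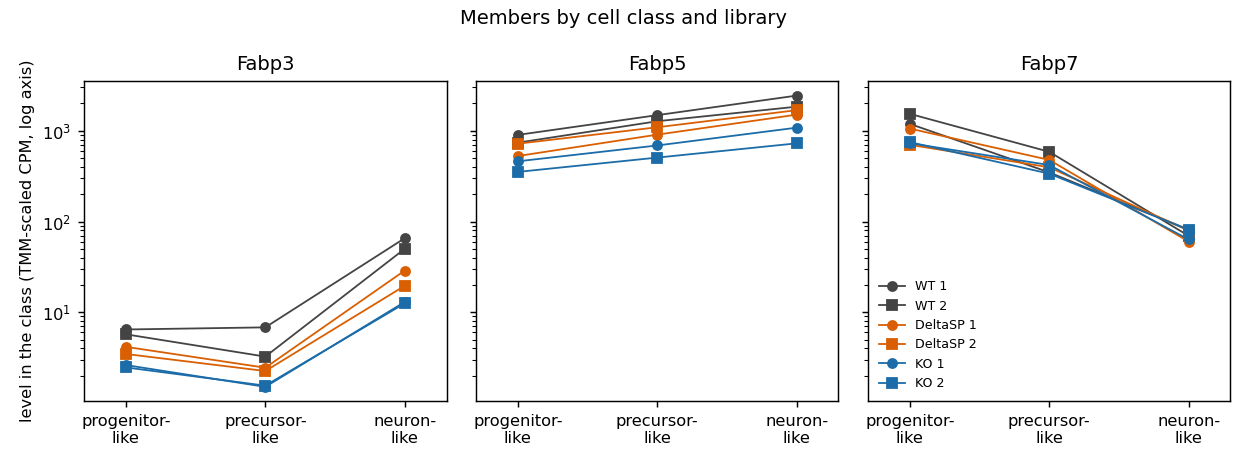
Level of Fabp3, Fabp5 and Fabp7 in each cell class and library, in CPM scaled by TMM on a log axis, with 1 line per library and colours for genotypes. Of the 3 classes drawn, Fabp7 was highest in progenitor-like cells and Fabp3 and Fabp5 in neuron-like cells, in all 6 libraries.

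Fabp7, the progenitor gene, fell steeply from progenitor-like to neuron-like cells. In CPM scaled by TMM (a correction for differing composition of the sums), its progenitor-like level was 1190 and 1535 in WT, 1056 and 700 in DeltaSP, and 728 and 749 in KO. In committing precursor-like cells it was 348 and 586, 477 and 396, and 419 and 337 in the same order, and in neuron-like cells 81.4 and 69.5, 60.1 and 79.4, and 63.4 and 81.0. The ranges of the 3 classes over the 6 libraries did not overlap. Neuron-like cells were lower by -3.79 ± 0.16 (log2 fold change ± SE, 6 libraries, library as a block) with adjusted p = 9.85e-10 in edgeR's quasi-likelihood test with Benjamini-Hochberg adjustment. Of 12576 genes tested in the same fit, 42.3% passed as lower and 40.9% as higher, so passing is common between these classes.

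Fabp5 was present in every class and rose toward neurons. Its progenitor-like level was 900 and 739 CPM in WT, 526 and 719 in DeltaSP, and 460 and 352 in KO. Precursor-like cells held 1484 and 1272, 905 and 1092, and 688 and 506 CPM, and neuron-like cells 2437 and 1840, 1503 and 1684, and 1080 and 726. Within each library the order was therefore progenitor-like, precursor-like, neuron-like, from low to high. The difference of neuron-like from progenitor-like cells was 1.22 ± 0.06 on the log2 scale, with adjusted p = 2.31e-09 in edgeR.

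Fabp3 was a gene of the neuron-like class, with little in the precursors. Its progenitor-like level was 6.47 and 5.73 CPM in WT, 4.17 and 3.48 in DeltaSP, and 2.63 and 2.47 in KO, resting on 30 to 56 UMIs per library. Precursor-like cells held 6.83 and 3.25, 2.46 and 2.26, and 1.51 and 1.56 CPM, from 7 to 19 UMIs each. Neuron-like cells held 65.5 and 50.1, 28.8 and 19.6, and 13.01 and 12.6 CPM, several times more than either earlier class in every library. The log2 difference of neuron-like from progenitor-like cells was 2.69 ± 0.13, with adjusted p = 3.26e-09 in edgeR. The classes were formed from the same cells, so these class differences describe where the genes lie rather than test it.

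The UMIs of each gene accordingly came from different cells. Neuron-like cells gave 80.1% and 78.5% of the Fabp3 UMIs in WT, 79.1% and 62.3% in DeltaSP, and 60.6% and 59.0% in KO. Progenitor-like cells gave 62.9% to 77.2% of the Fabp7 UMIs, and neuron-like cells 41.98% to 65.1% of the Fabp5 UMIs. For all genes together neuron-like cells gave 35.7% and 42.2% in WT, 36.5% and 28.6% in DeltaSP, and 28.9% and 25.5% in KO. Neuron-like cells were 33.0% and 34.7% of kept cells in WT, 29.9% and 23.1% in DeltaSP, and 22.2% and 21.5% in KO, while progenitor-like cells were 26.5% and 30.3%, 29.2% and 34.0%, and 35.1% and 46.0%. Sums over all cells of a library therefore mix levels with cell makeup, and in them fewer cells of a type and less RNA per cell cannot be told apart.

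**Figure D2:**
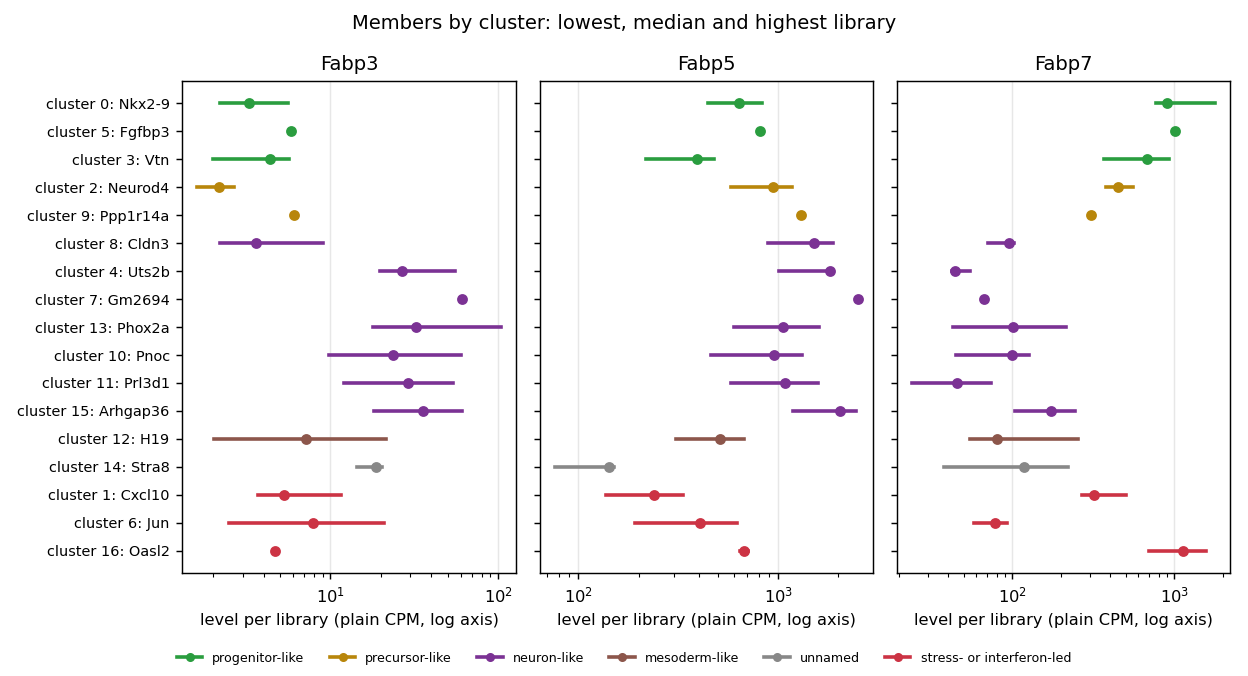
Level of the 3 genes in each cluster, in plain CPM (UMIs over the cluster's own total, without TMM) on a log axis, with a line from the lowest to the highest of the libraries that hold at least 20 of its cells, a point at the median and colours for classes. Fabp3 was at a median of 3.59 in the cluster led by Cldn3 and of 26.7 in the cluster led by Uts2b.

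Clusters within the classes showed a finer pattern, most clearly for Fabp3. In the cluster led by Cldn3, Isl2 and Lhx4 it was at a median of 3.59 plain CPM, with a range of 2.19 to 9.10 over 5 libraries. In the cluster led by Uts2b, Scg2 and Prph, the last an intermediate filament of peripheral and motor neurons, it was at 26.7 (19.8 to 55.4), and this cluster was above the former in 5 of 5 libraries. Fabp5 did not separate them in the same way, at a median of 1505 (894 to 1873) in the former and 1812 (1006 to 1867) in the latter, which was higher in 4 of 5. Fabp7 was low in both, and higher in the former in 5 of 5, at 94.7 (70.8 to 103) against 44.4 (42.3 to 54.4).

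Other neuron-like clusters also held Fabp3. The cluster led by the hindbrain motor neuron factor Phox2a was at a median of 32.2 plain CPM (17.9 to 104 over 6 libraries), the cluster with the calcium-binding protein gene Calb2 at 28.9 (12.03 to 54.1), and the cluster of inhibitory interneuron genes such as Slc32a1 and Tal1 at 23.7 (9.77 to 60.0). All of these were above the Cldn3 and Isl2 cluster in 5 of 5 libraries. For Fabp5 the order was the other way, since the Cldn3 and Isl2 cluster exceeded each of these clusters in 5 of 5 libraries. The unnamed cluster led by Stra8 and Dazl, genes of germ cells, held Fabp3 at 14.4 to 20.2 and Fabp5 at 76.2 to 151 plain CPM over 3 libraries, and its Fabp5 median of 142 was the lowest of the 17 clusters. All cells outside the named neural classes and the stress- or interferon-led clusters held Fabp3 at 21.9 and 63.4 CPM in WT, 6.81 and 14.2 in DeltaSP, and 8.35 and 11.7 in KO, from 8 to 57 UMIs each, so that WT 2 was above its neuron-like level there. That WT 2 level came from 53 UMIs, of which 15 lay in 31 mesoderm-like cells and the rest in 9 cells of the unnamed cluster.

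Progenitor-like clusters differed in Fabp5 and Fabp7. The cluster led by Nkx2-9 and Sfrp2 held Fabp7 at a median of 906 plain CPM (767 to 1787) and Fabp5 at 637 (444 to 835). The cluster of the floor plate genes Shh and Foxa2 held Fabp7 at 680 (368 to 931) and Fabp5 at 392 (218 to 478), lower for both genes in 5 of 5 libraries. The cluster led by interferon-induced genes, counted in 2 libraries, DeltaSP 1 and DeltaSP 2, held Fabp7 at 1565 and 695 in that order. WT 1 filled 3 clusters almost alone, with 1045 of 1072, 816 of 841 and 720 of 738 cells. Their levels of Fabp3, Fabp5 and Fabp7 were 5.82, 810 and 1014 plain CPM in the progenitor-like one, 61.2, 2510 and 66.7 in the neuron-like one, and 6.06, 1308 and 304 in the precursor-like one.

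To compare shares of cells, each cell was thinned to 3000 UMIs, which removed 936 WT 1 cells and between 56 and 201 cells from each other library. Fabp5 was then seen in 86.8% and 80.3% of WT cells, 76.0% and 76.0% of DeltaSP cells, and 70.0% and 64.7% of KO cells. Fabp3 was seen in 6.20% and 6.09%, 2.61% and 2.06%, and 1.69% and 1.25%, and Fabp7 in 40.8% and 44.3%, 45.8% and 43.3%, and 44.9% and 50.5%. For Fabp3 and Fabp5 all KO libraries lay below all WT libraries. The KO minus WT difference was -4.68 percentage points for Fabp3, -16.2 for Fabp5 and 5.13 for Fabp7, each with p = 0.333 in a two-sided exact permutation test, the smallest p that 2 libraries against 2 allow. The Fabp7 share went against its CPM, so no order is read from it. Without thinning the shares were 6.95% to 20.8% for Fabp3, 87.7% to 94.2% for Fabp5 and 45.3% to 75.1% for Fabp7.

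By class, thinned shares of Fabp7 were 64.0% to 75.0% in progenitor-like and 13.2% to 17.9% in neuron-like cells. Mesoderm-like cells had it in 9.29% to 19.0%, a range that overlapped that of neuron-like cells. Their cluster held it at 54.6 to 252 plain CPM, with 252 in KO 2. Whether mesoderm-like cells lack Fabp7 was not tested, so no background level for it is read from them. Fabp3 was seen in 14.1% and 12.2% of WT, 5.99% and 5.67% of DeltaSP, and 4.09% and 3.37% of KO neuron-like cells. In progenitor-like cells it was in 0.56% to 2.14%. Mesoderm-like cells give no background for Fabp3, since their cluster held it at 19.8 and 21.5 plain CPM in WT, 6.05 and 8.19 in DeltaSP, and 2.89 and 2.02 in KO, from 1 to 18 UMIs each. How much of the few Fabp3 UMIs of progenitor-like cells was free RNA was not tested. Fabp5 was in 84.8% to 97.8% of neuron-like, 63.8% to 84.8% of progenitor-like and 61.8% to 82.2% of mesoderm-like cells. Fabp5 and Fabp7 were seen together in 61.2% and 61.0% of WT, 55.7% and 51.5% of DeltaSP, and 48.8% and 45.6% of KO progenitor-like cells. The product of the single shares gives 61.1% and 59.9%, 54.8% and 50.6%, and 47.2% and 44.9%, so the pair met about as often as their separate shares would give.

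**Figure D3:**
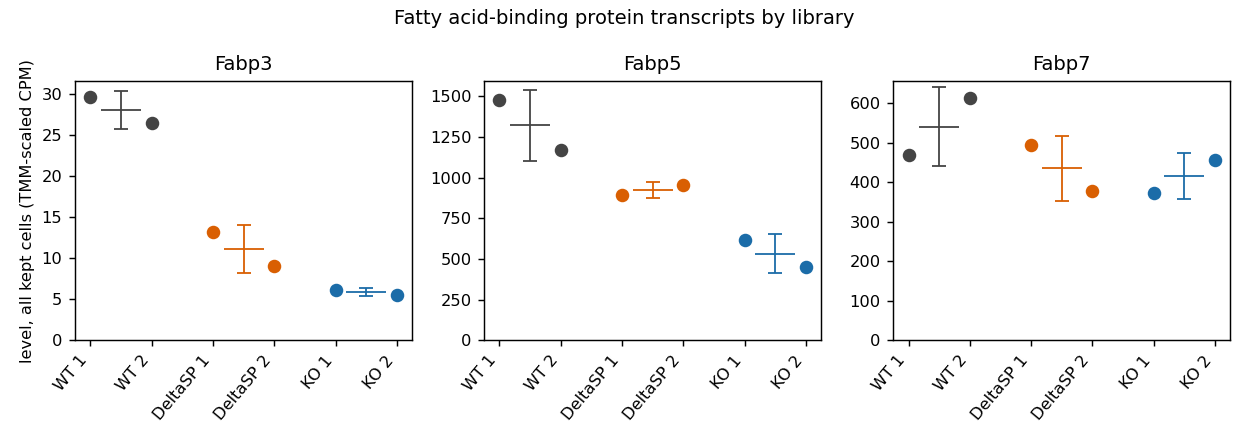
Level of Fabp3, Fabp5 and Fabp7 over all cells of each library, in CPM scaled by TMM, 1 point per library, with the genotype mean and SD (n = 2). WT libraries lie highest and KO libraries lowest for Fabp3 and Fabp5, without overlap between genotypes. The share of all genes in this order was not counted.

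The main comparison of the design asked what loss of the lncMN2 transcript changed, and over all cells Fabp3 and Fabp5 were lower in KO than in WT while Fabp7 did not pass. Fabp3 was at 29.6 and 26.4 CPM in WT, 13.1 and 9.07 in DeltaSP, and 6.16 and 5.54 in KO, from 523 and 688, 492 and 416, and 198 and 195 UMIs. The 3 genotypes did not overlap, at means of 28.0 ± 2.29, 11.1 ± 2.86 and 5.85 ± 0.440 (SD, n = 2 libraries). KO against WT gave a log2 fold change of -2.26 ± 0.22 with adjusted p = 0.0155 in edgeR, against 4.71% of 14900 genes that passed as lower and 29.2% whose libraries were lower without overlap.

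Fabp5 was at 1475 and 1169 CPM in WT, 891 and 957 in DeltaSP, and 617 and 450 in KO. Again no genotype overlapped another, at means of 1322 ± 216, 924 ± 47.1 and 533 ± 118 (SD, n = 2). KO against WT gave -1.31 ± 0.23 with adjusted p = 0.0308 in edgeR. Both calls depended on single libraries. Without WT 1 the adjusted p was 0.0529 for Fabp3 and 0.0605 for Fabp5, without KO 1 it was 0.0591 and 0.0962, and without KO 2 it was 0.193 and 0.279, with log2 fold changes of -2.33 to -2.16 for Fabp3 and -1.55 to -1.09 for Fabp5.

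Fabp7 over all cells was at 469 and 612 CPM in WT, 493 and 377 in DeltaSP, and 374 and 457 in KO, with means of 541 ± 100.9, 435 ± 82.4 and 415 ± 59.0 (SD, n = 2). Both KO libraries were below both WT libraries on this scale, but by plain CPM they overlapped, with 399 and 512 in KO against 408 and 590 in WT. KO against WT gave -0.38 ± 0.22 with adjusted p = 0.287 in edgeR, -0.13 ± 0.25 when scaled by library totals, and 0.06 ± 0.29 once a trend with transcript length was removed. Its direction over all cells is therefore not settled by these libraries. Together the 3 genes took 0.172% and 0.174% of UMIs in WT, 0.146% and 0.128% in DeltaSP, and 0.106% and 0.102% in KO.

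**Figure D4:**
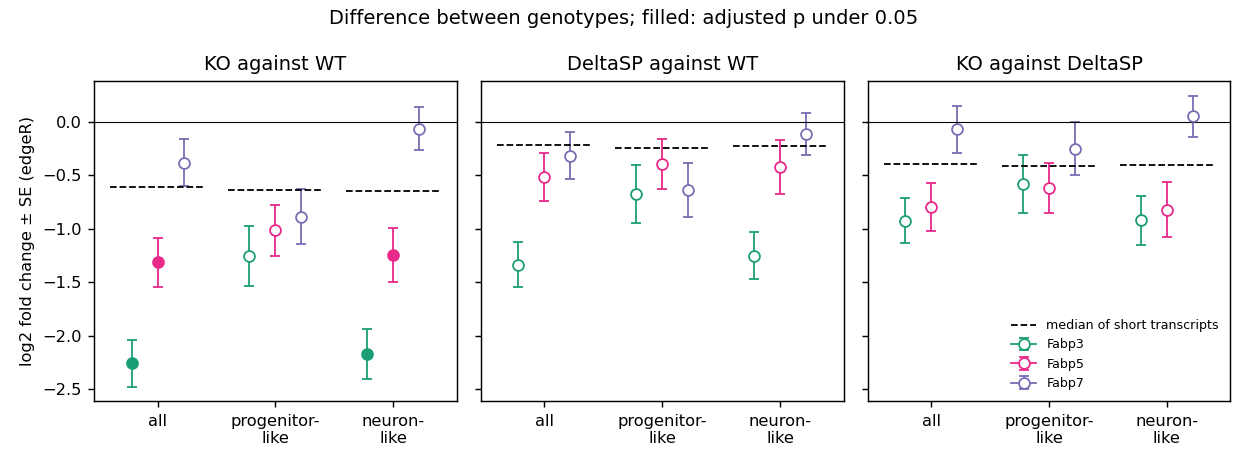
Log2 fold change with its SE for each gene in each genotype comparison, over all cells, progenitor-like cells and neuron-like cells, from edgeR, with filled points where the adjusted p is under 0.05 and a dashed line at the median of transcripts of at most 1000 bases. Fabp3 and Fabp5 lie below 0 in all 9 combinations, and Fabp7 lies near 0 in neuron-like cells.

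Within neuron-like cells, which take cell makeup partly out of the comparison, Fabp3 and Fabp5 were again lower in KO. Their log2 fold changes against WT were -2.17 ± 0.23 with adjusted p = 0.0162 and -1.24 ± 0.26 with adjusted p = 0.0415 in edgeR, where 3.04% of 12815 genes passed as lower and 26.6% were lower without overlap. Fabp7, low here, gave -0.06 ± 0.20 with adjusted p = 0.883 in edgeR, and 0.22 when scaled by library totals. The Fabp3 call was lost without KO 1 (adjusted p = 0.0914) and without KO 2 (0.235). The Fabp5 call was lost without WT 1 (0.0842), DeltaSP 1 (0.0626), DeltaSP 2 (0.0612), KO 1 (0.0944) or KO 2 (0.325). In WT 1, 816 neuron-like cells lay in a cluster that it filled almost alone, so the WT level rests on different clusters in its 2 libraries. The Cldn3 and Isl2 cluster, low in Fabp3, held 11 of 1483 and 92 of 560 neuron-like cells in WT. It held 205 of 682 and 237 of 831 in DeltaSP, and 143 of 473 and 129 of 451 in KO. Within the Uts2b cluster Fabp3 was at 55.4 plain CPM in WT 2, 43.01 and 26.7 in DeltaSP, and 19.8 and 21.02 in KO. WT 1, with 11 cells in either cluster, gives no such level. How much of the Fabp3 differences came from the mix of clusters was not tested.

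Within progenitor-like cells no member passed, although all 3 were lower in KO without overlap, as were 23.1% of 12526 genes. In that comparison 1.45% of genes passed as lower. The log2 fold changes of KO against WT were -1.25 ± 0.28 for Fabp3, -1.01 ± 0.24 for Fabp5 and -0.88 ± 0.25 for Fabp7, with adjusted p = 0.0718, 0.0813 and 0.123 in edgeR. Without WT 2, Fabp3 and Fabp5 passed, with adjusted p = 0.0388 and 0.0251. Fabp3 rests here on 30 to 56 UMIs per library. In WT 1, 1045 of 1193 progenitor-like cells lay in a cluster that it filled almost alone. The WT level rests on different clusters in its 2 libraries. In a finer clustering (resolution 1.2), the cluster led by Fabp7 and Nkx2-2 held Fabp7 at 2059 plain CPM, against 721 in the largest cluster. The former ran from 11 of 1196 progenitor-like cells in WT 1 to 154 of 466 in WT 2. How much of the Fabp7 differences came from the mix of clusters was not tested. Whether the KO difference differed between the classes was tested directly, as class by genotype. The difference of neuron-like from progenitor-like cells was -0.94 ± 0.24 for Fabp3 (adjusted p = 0.163), -0.28 ± 0.10 for Fabp5 (0.284) and 0.78 ± 0.29 for Fabp7 (0.286), so none passed in edgeR, beside 0.0159% of all genes.

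The ratio of Fabp7 to Fabp5 UMIs within a library does not depend on how the library is scaled. Over all cells it was 0.318 and 0.524 in WT, 0.554 and 0.394 in DeltaSP, and 0.606 and 1.02 in KO, so both KO libraries were highest. In neuron-like cells it was 0.0334 and 0.0378, 0.0400 and 0.0471, and 0.0587 and 0.112. From KO 1 to KO 2 there, Fabp7 rose from 67.2 to 92.5 plain CPM and Fabp5 fell from 1145 to 828. Both genes therefore moved the ratio. In progenitor-like cells it was 1.32 and 2.08, 2.01 and 0.972, and 1.58 and 2.13, and the genotypes overlapped. For Fabp3 the log2 difference of neuron-like from progenitor-like cells, in plain CPM, was 3.38 and 3.10 in WT, 2.77 and 2.52 in DeltaSP, and 2.295 and 2.34 in KO, a difference between genotypes that did not pass in the class by genotype test above. For Fabp5 this difference was 1.48 and 1.29, 1.49 and 1.25, and 1.22 and 1.04, and for Fabp7 it was -3.83 and -4.49, -4.16 and -3.11, and -3.53 and -3.21.

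The DeltaSP edit, set against WT, lay between for Fabp3 and Fabp5. Both comparisons use the same WT libraries. Over all cells DeltaSP against WT gave -1.34 ± 0.21 for Fabp3, -0.52 ± 0.23 for Fabp5 and -0.31 ± 0.22 for Fabp7, with adjusted p = 0.0694, 0.300 and 0.485 in edgeR. None passed, beside 0.0671% of genes that passed as lower, and 23.1% of genes were lower without overlap, as Fabp3 and Fabp5 were. Without WT 2 the Fabp3 difference passed, at -1.42 with adjusted p = 0.0333. In progenitor-like cells the differences were -0.67, -0.40 and -0.63 for Fabp3, Fabp5 and Fabp7 (adjusted p = 0.337, 0.495 and 0.336). All 3 were without overlap in CPM scaled by TMM, where 20.9% of genes were lower without overlap and 0.00798% passed as lower. By plain CPM Fabp7 overlapped there, at 1104 and 662 in DeltaSP against 1021 and 1478 in WT. In neuron-like cells the differences were -1.25, -0.42 and -0.11 (adjusted p = 0.114, 0.466 and 0.816), with 21.6% of genes lower without overlap, as Fabp3 and Fabp5 were, and 0.0078% passing as lower. Without WT 2 Fabp3 passed there too. The class by genotype differences were -0.58 for Fabp3, -0.00 for Fabp5 and 0.56 for Fabp7 and none passed, with 0.00795% of all genes passing.

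KO set against DeltaSP gave -0.92 ± 0.21 for Fabp3, -0.79 ± 0.23 for Fabp5 and -0.07 for Fabp7 over all cells, with adjusted p = 0.844, 0.844 and 0.995 in edgeR. Fabp3 and Fabp5 were lower without overlap, as were 21.1% of genes, while 0.00671% passed as lower. In progenitor-like cells the values were -0.58, -0.62 and -0.25, with 20.4% of genes lower without overlap and 0.00798% passing as lower. In neuron-like cells they were -0.92, -0.82 and 0.05, with 22.5% and 0.0078% in the same terms. The class by genotype differences were -0.36, -0.28 and 0.22, and 0% of genes passed.

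Short transcripts as a group moved with genotype, and the 3 members are short. Among 1093 tested genes with transcripts of at most 1000 bases, the median log2 fold change of KO against WT over all cells was -0.61, against 0.00 for all genes, and 231 of the 242 that passed were lower. The median was -0.63 in progenitor-like and -0.65 in neuron-like cells, and -0.21 in DeltaSP against WT over all cells. Of these short transcripts 92.96% lay above Fabp3, 74.5% above Fabp5 and 40.9% above Fabp7 in KO against WT. With a trend of fold change on transcript length removed, the KO difference over all cells was -1.83 for Fabp3 (adjusted p = 0.0274) and -1.03 for Fabp5 (adjusted p = 0.0295) in edgeR. In neuron-like cells it was -1.75 (0.0247) and -0.98 (0.0393), and Fabp7 was at 0.39. Scaling by library totals in place of TMM moved the median of all genes by 0.26 over all cells in KO against WT. What sets the shift of short transcripts was not tested. Values with the length trend removed were kept for the 3 members only. The fold changes of other genes given below carry no such correction.

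Of the retinoid-binding relatives, Rbp2, a retinol-binding protein gene, was lower in KO, and Crabp1 and Crabp2, which bind retinoic acid, did not pass. Over all cells Rbp2 was at 11.2 and 18.0 CPM in WT, 6.35 and 8.70 in DeltaSP, and 4.51 and 2.44 in KO, without overlap between genotypes. KO against WT gave -2.08 ± 0.36 with adjusted p = 0.0308 in edgeR. Of all genes, 4.71% passed as lower there and 29.2% were lower without overlap. Crabp1 and Crabp2 gave 0.40 and 0.24 with adjusted p = 0.335 and 0.390. Between classes Rbp2 was higher in neuron-like cells by 4.48 and Crabp1 by 3.22 on the log2 scale, and Crabp2 did not pass.

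Nuclear receptors that take up such ligands did not pass in KO against WT over all cells, 0 of 7 tested from 9 listed in edgeR, with a median of 0.02. The 4 with the smallest p were Ppard at 1.07 (adjusted p = 0.0736), Rxra at 0.54 (0.0879), Rarb at -0.61 (0.0921) and Rxrg at -0.87 (0.267) in edgeR. Of 12 tested genes of fatty acid uptake and activation, 1 fell and none rose, with a median of -0.01, beside 4.71% of all genes that passed as lower and 2.81% as higher. That gene was Dbi, the acyl-CoA-binding protein, at -1.27 ± 0.23 with adjusted p = 0.0323, and it was also lower in progenitor-like cells, by -1.59 (adjusted p = 0.0387), and in neuron-like cells, by -1.39 (adjusted p = 0.0408), where 1.45% and 3.04% of all genes passed as lower. The acyl-CoA synthetases Acsl5, Acsl6 and Acsl4 gave 0.86, 0.38 and -0.20 and did not pass.

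Genes of fatty acid oxidation lay slightly above the median of all genes, at a median of 0.33 in KO against WT over all cells, with 1 of 19 higher and 1 lower, which is near the 2.81% and 4.71% of all genes that passed as higher and lower. Acadvl, the very long-chain acyl-CoA dehydrogenase, rose by 0.69 ± 0.16 (adjusted p = 0.0462 in edgeR), and Etfb, a subunit of the electron transfer flavoprotein, fell by 1.10 ± 0.26 on the log2 scale (adjusted p = 0.0499). Etfa, its partner subunit, gave 0.64 and Hadh 0.53, neither of which passed. Of 18 genes of synthesis and desaturation 2 rose and none fell, with a median of 0.28, beside the same 2.81% of all genes that passed as higher. They were the elongase Elovl1, at 0.79 ± 0.17 (adjusted p = 0.0402), and the lipogenic transcription factor Srebf1, at 0.96 ± 0.23 (adjusted p = 0.0496), while fatty acid synthase Fasn gave 0.65 and did not pass. Of 10 genes of lipid droplets and lipolysis none passed over all cells, with a median of 0.11, and the droplet coat gene Plin3 rose in neuron-like cells by 1.33 (adjusted p = 0.0344), as 1 of 9 tested there, where 1.2% of all genes passed as higher.

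Radial glia genes were mostly lower in neuron-like cells, as Fabp7 was, and 1 passed between KO and WT. Between classes 10 of 11 tested were lower and 1 higher in neuron-like cells, with a median of -2.03, beside 42.3% of all genes that passed as lower and 40.9% as higher, and the glutamate transporter Slc1a3 was at -4.43, Sox2 at -3.67 and Nes at -2.14. The exception was Mt3, a metallothionein, higher by 1.45. Sox2, Nes, Pax6 and Sox9 of this list also served as markers to name the progenitor-like class. So did Pax6, Hes1 and Hes5 among the factors known to act on Fabp7. Their direction between classes was partly set by that naming and is no separate support. In KO against WT over all cells 1 of 13 passed, Mt3, lower by -2.10 ± 0.45 (adjusted p = 0.0409 in edgeR), with a median of 0.28 for the list and 4.71% of all genes passing as lower. Factors known to act on Fabp7 gave 10 of 12 lower, 1 higher and a median of -2.64 between classes, beside the same 42.3% and 40.9% of all genes, with -3.46 for the Notch target Hes5 and -2.28 for Notch1. In KO against WT over all cells 1 of 12 fell, beside 4.71% of all genes, Nfia at -1.03 ± 0.19 (adjusted p = 0.0323), while Rbpj at -0.49, Nfix at 1.06 and Notch1 at 0.49 did not pass. In neuron-like cells Nfia and Nfib, nuclear factor I genes, fell by 2.01 and 2.11 on the log2 scale (adjusted p = 0.0162 and 0.0248), and Notch1 rose by 0.84 (adjusted p = 0.0445), which makes 2 of 11 lower and 1 higher beside 3.04% and 1.2% of all genes. In progenitor-like cells, where Fabp7 is expressed, none of the 12 passed in KO against WT, beside 1.45% of all genes that passed as lower. Their median there was -0.44, against 0.01 for all genes, and 10 of 12 were below 0.

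The genes most like each member were sought over 24 sums, those of 4 classes in each of 6 libraries, among 6645 genes. Sums of 1 library share its depth and clone, and sums of 1 class share its cells, so the values only describe. Fabp7 was most like Pdpn (Pearson r = 0.963), Nedd9 (0.962), Mdk (0.948), Itgb8 (0.947) and Adgrv1 (0.942). Fabp3 was most like Hcfc1r1 and Slc25a1 (both 0.948) and Anxa5 and Dusp4 (both 0.928). Fabp5 was most like Borcs7 (0.917), and also like Atxn7l3b (0.894), Mmp15 (0.887) and Hsbp1 (0.886). The members were less like each other, at 0.400 for Fabp3 with Fabp5, -0.419 for Fabp5 with Fabp7 and -0.781 for Fabp3 with Fabp7.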

How the data were processed

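The authors deposited unnormalized UMI counts, with genes as rows and cell barcodes as columns. Per the submitters' processing notes they were made with Cell Ranger 4.0 on mm10, with annotation of Ensembl release 93 per the series' design text. The labels name the 10x 3' kit as V3 and as V3.1. Barcodes were kept from 1000 genes upward and up to 10% mitochondrial UMIs. Doublets were not called here, and an alternative left out the 6% of cells with most UMIs in each library. Cells, scaled to 10000 counts each, were clustered by the Leiden method (scanpy 1.11.5, leidenalg 0.10.2, Python 3.11.15, resolution 0.6) on 15 neighbours in 30 principal components of 2000 variable genes, from which the lipid-binding family was taken out. This gave 17 clusters, named "like" a type from at least 3 markers. Clusters led by stress or interferon genes stayed out of the classes.

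For each library, UMIs of all kept cells or of a class were summed. The quasi-likelihood test of edgeR 4.0.16 (R 4.3.3, limma 3.58.1) was run on these sums after TMM scaling and filterByExpr, p-values were adjusted by Benjamini-Hochberg over all tested genes, and the threshold was 0.05. A single fit held 6 libraries with genotype as term, and between classes library was a block. The fit was tested on simulated data. Kept sums held 20318500 to 47927845 UMIs per library, which limits Fabp3 in single classes to 7 to 56 UMIs in the progenitor-like and precursor-like sums. Intervals from UMIs would cover counting error only and are not given. Transcript lengths came from GENCODE M21, for 30532 of 31053 genes. Alternatives were DESeq2 (1.42.0) size factors and Wald test, library totals, no filter on low counts, fits of only the genotypes compared, a replicate block, each library left out in turn, looser limits on cells (from 500 genes, up to 20% mitochondrial UMIs), all barcodes, thinned sums, removal of a length trend, resolution 1.2, the family genes in the clustering and, chosen after seeing the data, stress- and interferon-led clusters in the classes and the cells of most UMIs left out.

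The members and the lists were chosen with earlier results of these data known. The text names the members, the other lipid-binding family genes by UMI total and, at 1 CPM or more in any library, by level, up to 4 genes per list with the smallest p in KO against WT over all cells, and the 5 most alike genes per member (Pearson correlation of log2(CPM + 1), mean of at least 20 CPM). Some genes that this rule takes are not reported here. The genes of lists named for class differences or within a class were chosen after their values were seen. The replicate numbers are not stated to pair the libraries. Libraries of the same number deviated from their group means with correlations of -0.0167 to 0.137 over all cells. The range was -0.111 to 0.141 in progenitor-like and -0.0611 to 0.174 in neuron-like cells. With 2 libraries per genotype, such values cannot show whether libraries shared a batch.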

Additional observations from a re-analysis of the deposited data

How the results depend on the processing

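The 9 genotype comparisons, the class comparison and the class by genotype comparisons were recomputed under each alternative. Of 111 repeats of a passing log2 fold change, 96 passed again with the same sign and 15 kept the sign without passing. Of 540 repeats of one that did not pass, 492 stayed so, 22 passed and 26 changed sign. The Fabp3, Fabp5 and Fabp7 class differences, with 13 repeats each, passed under every alternative run. All 15 repeats that lost a call were therefore of Fabp3 or Fabp5 in KO against WT. Those calls had 17 repeats each over all cells and 19 each in neuron-like cells.

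Counts of passing members moved as follows. In KO against WT over all cells, 2 passed, and 0 to 2 when 1 library was left out. In neuron-like cells 2 passed, 1 with only the genotypes compared or looser limits on cells, and 0 to 2 without 1 library. In progenitor-like cells 0 passed, 3 with no filter on low counts or DESeq2's Wald test, and 0 to 2 without 1 library. In DeltaSP against WT 0 passed over all cells, and 1 (Fabp3) with no filter, DESeq2's Wald test, thinned sums or without the cells of most UMIs. In neuron-like cells 1 passed with DESeq2's Wald test, and leaving out 1 library gave 0 to 1 in both. In KO against DeltaSP over all cells 2 passed with no filter. With no filter the class by genotype count was 3 in KO against WT, 1 in DeltaSP against WT and 1 in KO against DeltaSP, against 0 each. The cause was not tested. The Fabp3 share of cells, KO minus WT, was -3.01 percentage points when thinned to 2000 UMIs.

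Sign changes concerned Fabp7, and Fabp5 in 1 comparison. With the length trend removed Fabp7 was at 0.0559 (KO against WT, all cells), 0.21 and 0.0399 (KO against DeltaSP, all and progenitor-like cells), and 0.39 and 0.0262 (neuron-like cells, KO and DeltaSP against WT). With library totals it was at 0.0585 (KO against DeltaSP, all cells), 0.22 and 0.0081 (neuron-like cells, KO and DeltaSP against WT). Without the cells of most UMIs it was at -0.27 (KO against DeltaSP, neuron-like cells) and -0.0792 (class by genotype, KO against DeltaSP). The Fabp5 class by genotype value in DeltaSP against WT was 0.15 under looser limits on cells, 0.00099 at resolution 1.2, 0.000348 with family genes in the clustering, and 0.01999 with stress-led clusters in the classes. Leaving out 1 library at a time, Fabp7 in KO against DeltaSP ran from -0.24 to 0.14 over all cells, -0.50 to 0.0787 in progenitor-like and -0.14 to 0.29 in neuron-like cells. In neuron-like cells it ran from -0.24 to 0.11 in KO and from -0.33 to 0.0754 in DeltaSP, each against WT. The class by genotype values ran from -0.13 to 0.17 for Fabp5 in DeltaSP against WT and from -0.28 to 0.78 for Fabp7 in KO against DeltaSP.

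The replicate block, for which no pairing is stated, left 2 members passing in KO against WT over all cells, at -2.26 for Fabp3 (adjusted p = 0.0138) and -1.32 for Fabp5 (adjusted p = 0.0342) in edgeR.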
